A study of Homo sapiens with 4 samples.

Results

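Kinesins are motor proteins that use ATP to move along microtubules or to take microtubule ends apart. The genes described here are all those whose symbol begins with KIF and a digit, or with KIFC and a digit, leaving out antisense genes. RefSeq accessions gave 41 such genes among 22841 gene symbols in the deposited tables, and the transcript row with the highest mean count stood for each gene. They were grouped by their best-known role into 13 mitotic kinesins, 17 transport kinesins and 11 others, which are ciliary, centriolar, signalling or mixed in role. KIF18B, a mitotic kinesin, was not analysed here. Total RNA came from the PC-3M-luc line, a luciferase-carrying derivative of human PC-3 prostate carcinoma cells. The LSD1 knockdown group received RNAi against LSD1, the histone demethylase encoded by KDM1A, and the control group received control RNAi. Both were transfected with the same reagent, Dharmafect 2, and harvested 72 h later, with 2 libraries per group that the labels call biological replicates. The design text of the series speaks of a knockout where the sample labels say RNAi, and the comparison is described here as a transient knockdown in a single cell line.

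In a dividing cell, mitotic kinesins push the spindle poles apart, hold them together, bring chromosomes to the middle of the spindle and build the midzone on which the dividing cell is pinched apart. Their mRNAs rise in G2 and mitosis, which is known to involve promoter elements called CHR and CCAAT boxes. Most transport kinesins carry vesicles, mitochondria, mRNAs and cilium components outwards along microtubules throughout the cell cycle, usually with light chains or adaptors that bind the cargo. The transport list also holds KIFC2 and KIFC3, which move towards microtubule minus ends, and KIF21A, which limits microtubule growth at the cell cortex.

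On the rows that stood for genes, the 4 libraries held 12040681 and 12831374 counts in the LSD1 knockdown group and 12474183 and 12410719 in the control group. KDM1A had 17.8 and 18.1 CPM (counts scaled to a common library size with trimmed-mean factors) in knockdown libraries, against 234.9 and 237.9 CPM in control libraries, a level of 7.59% of control (edgeR quasi-likelihood test, adjusted p = 2.56e-24). The epithelial markers KRT8, KRT18, KRT19, EPCAM and CDH1 had 161 counts or more in every library, and KRT8, EPCAM and CDH1 rose, CDH1 2.42-fold (edgeR adjusted p = 3.74e-10). The androgen-regulated prostate genes KLK3 and KLK2 were at 0 in all 4 libraries, in a line that the series title calls androgen-independent, and TMPRSS2 had at most 4 counts. PTPRC and CD3E of leukocytes and CDH5 of endothelium were at 0 in all 4 libraries. PECAM1 of endothelium had 26 and 20 counts in knockdown libraries, against 37 and 38 in control libraries, and fell (edgeR adjusted p = 0.0482). The fibroblast genes DCN and COL3A1 had at most 10 counts, and COL1A1 had 331 to 415 without passing. CD68, a macrophage marker, had 547 and 605 counts in knockdown libraries, against 1077 and 1045 in control libraries, and fell (edgeR adjusted p = 1.04e-09). The part of these marker shifts in the kinesin values was not tested.

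Kinesin genes were more often lower than higher after LSD1 knockdown. Of the 41 genes 32 passed the filter on low counts, and of these 15 fell, 1 rose and 16 did not pass the test at an adjusted p under 0.05. The genes that fell made up 46.9% of those tested, beside 17.9% of all 13247 genes tested, while 18.2% of all genes rose and 36.1% changed in either direction. The median log2 fold change of the tested kinesins was -0.26, beside 0.0023 over all tested genes. Among mitotic kinesins 7 of 12 tested fell and 5 did not pass, with a median of -0.46. Among transport kinesins 6 of 14 tested fell, 1 rose and 7 did not pass, with a median of -0.14. Among the others 2 of 6 tested fell and 4 did not pass, with a median of -0.01. The medians of the mitotic and transport groups stand side by side as descriptions, and their difference was not tested. In bulk RNA, fewer cells at the stage that expresses a gene and less of its RNA per cell cannot be told apart.

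**Figure D1:**
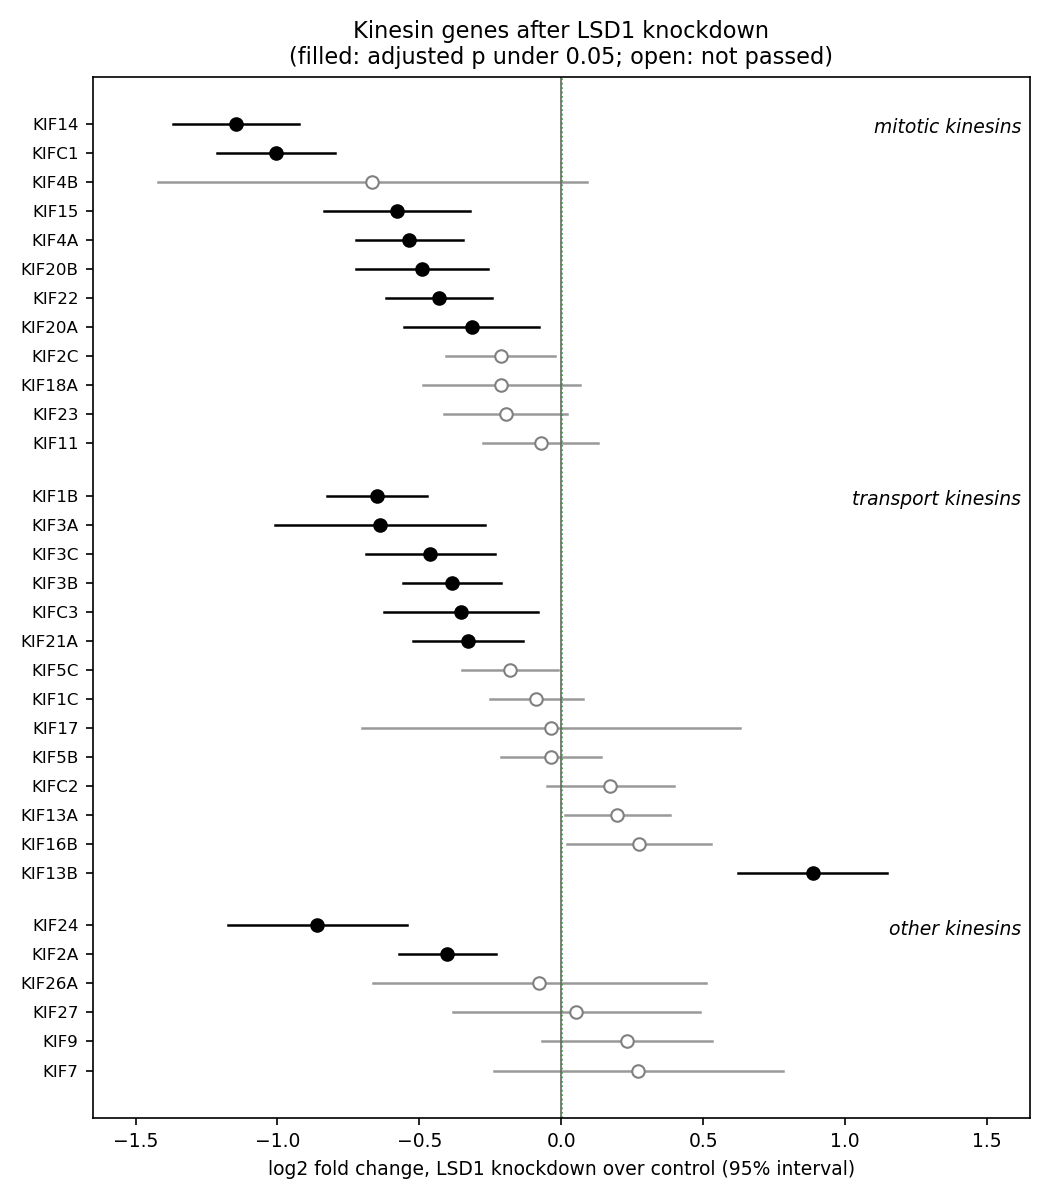
Log2 fold change of the 32 tested kinesin genes, LSD1 knockdown over control, with 95% intervals from the fit, grouped by role and ordered by size, with filled points for an adjusted p under 0.05 and a dotted line at the median of all tested genes. KIF14 and KIFC1 lie lowest among mitotic kinesins, and KIF13B is the single gene that rose.

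Among kinesins that build the spindle, the minus-end motor KIFC1 showed the largest fall and KIF11 did not pass the test. KIFC1 (NM_002263), which clusters spindle poles and extra centrosomes, had 23.7 and 23.9 CPM in knockdown libraries, against 46.3 and 49.2 CPM in control libraries. Both knockdown libraries lay far below both control libraries, at 49.8% of the control mean. The fall was 2.01-fold, with a 95% interval of the log2 fold change from -1.21 to -0.80 (edgeR adjusted p = 2.28e-09). Its exons overlap the pseudogene RPL12P1 on the opposite strand over 424 nucleotides, and strand use in counting is not stated. KIF15 (NM_020242), a plus-end motor that can take over the work of KIF11 in keeping the spindle bipolar, had 18.9 and 14.8 CPM in knockdown libraries, against 25.0 and 25.2 CPM in control libraries. It fell by 0.58 on the log2 scale (standard error 0.13, edgeR adjusted p = 0.000453). KIF11 (NM_004523), the motor that pushes the spindle poles apart, had 36.3 and 35.4 CPM in knockdown libraries, against 36.9 and 38.5 CPM in control libraries. Its log2 fold change was -0.07 with a 95% interval from -0.28 to 0.13 (edgeR adjusted p = 0.604), so that a fall like that of KIFC1 lies outside the interval.

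The microtubule depolymerase KIF2C and the chromosome-aligning motor KIF18A were a little lower in knockdown libraries without passing the test. KIF2C (NM_006845), which corrects faulty kinetochore attachments, had 42.1 CPM in each knockdown library, against 47.5 and 50.2 CPM in control libraries, a log2 fold change of -0.21 with a 95% interval from -0.41 to -0.02 (edgeR adjusted p = 0.0763). KIF18A (NM_031217), which damps chromosome movements at the metaphase plate, had 12.9 and 13.1 CPM in knockdown libraries, against 14.9 and 15.3 CPM in control libraries. Its log2 fold change was -0.21 with a 95% interval from -0.49 to 0.06 (edgeR adjusted p = 0.232). The groups did not overlap for either gene, nor did they for KIF11 and KIF5B, which changed less. The share of all tested genes without overlap was not counted, so lack of overlap adds nothing to these tests.

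Kinesins of the spindle midzone and cytokinesis included the largest fall of the family. KIF14 (NM_014875), which acts with citron kinase in cytokinesis, had 24.6 and 20.0 CPM in knockdown libraries, against 51.4 and 47.1 CPM in control libraries. Its level was 45.3% of control, a fall of 1.14 ± 0.11 on the log2 scale (± standard error, edgeR adjusted p = 5.67e-10). Citron kinase itself, encoded by CIT, had 50.5 and 50.1 CPM in knockdown libraries, against 81.5 and 89.1 CPM in control libraries, and fell by 0.76 on the log2 scale (edgeR adjusted p = 4.92e-08). KIF4A (NM_012310), a motor that sets the length of the midzone together with PRC1 and binds chromosome arms, had 47.4 and 43.3 CPM in knockdown libraries, against 65.5 and 66.1 CPM in control libraries. It fell by 0.54 on the log2 scale (standard error 0.09, edgeR adjusted p = 2.47e-05). PRC1, named after its values were seen as the partner of KIF4A, fell by 0.26 (edgeR adjusted p = 0.0348).

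KIF22 (NM_007317), a chromosome-arm motor also called Kid, had 50.7 and 57.2 CPM in knockdown libraries, against 71.6 and 73.8 CPM in control libraries, and fell by 0.43 on the log2 scale (standard error 0.09, edgeR adjusted p = 0.000367). KIF20B (NM_016195), which helps to complete cytokinesis, had 28.1 and 24.1 CPM in knockdown libraries, against 40.5 and 32.7 CPM in control libraries, a fall of 0.49 (standard error 0.11, edgeR adjusted p = 0.000965). The fall of KIF20B rests partly on control replicate 1, without which it was 0.33 (edgeR adjusted p = 0.0563). KIF20A (NM_005733), which brings the chromosomal passenger complex to the midzone, had 21.2 and 23.9 CPM in knockdown libraries, against 25.8 and 30.4 CPM in control libraries, and fell by 0.32 (standard error 0.12, edgeR adjusted p = 0.0329). That call was lost in DESeq2 (adjusted p = 0.152) and in edgeR without control replicate 2 (-0.19 on the log2 scale, adjusted p = 0.32) or without knockdown replicate 1 (-0.24, adjusted p = 0.208).

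KIF23 and its partner RACGAP1 form the centralspindlin complex, and the test called the partner but not the motor. KIF23 (NM_138555) had 32.1 and 30.9 CPM in knockdown libraries, against 39.1 and 33.0 CPM in control libraries, a log2 fold change of -0.20 with a 95% interval from -0.41 to 0.02 (edgeR adjusted p = 0.151). RACGAP1, named after its values were seen, had 96.5 and 94.2 CPM in knockdown libraries, against 120.0 and 127.1 CPM in control libraries, and fell by 0.37 (edgeR adjusted p = 0.000637). Whether the pair differ in their change was not tested. KIF4B, a near-identical intronless copy of KIF4A, had 13 and 14 counts in knockdown libraries, against 22 and 20 in control libraries, and did not pass (edgeR adjusted p = 0.164). Reads of KIF4A and KIF4B may be shared, so the KIF4B value is uncertain. KIF2B, a depolymerase known from testis, was at 0 in all 4 libraries.

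**Figure D2:**
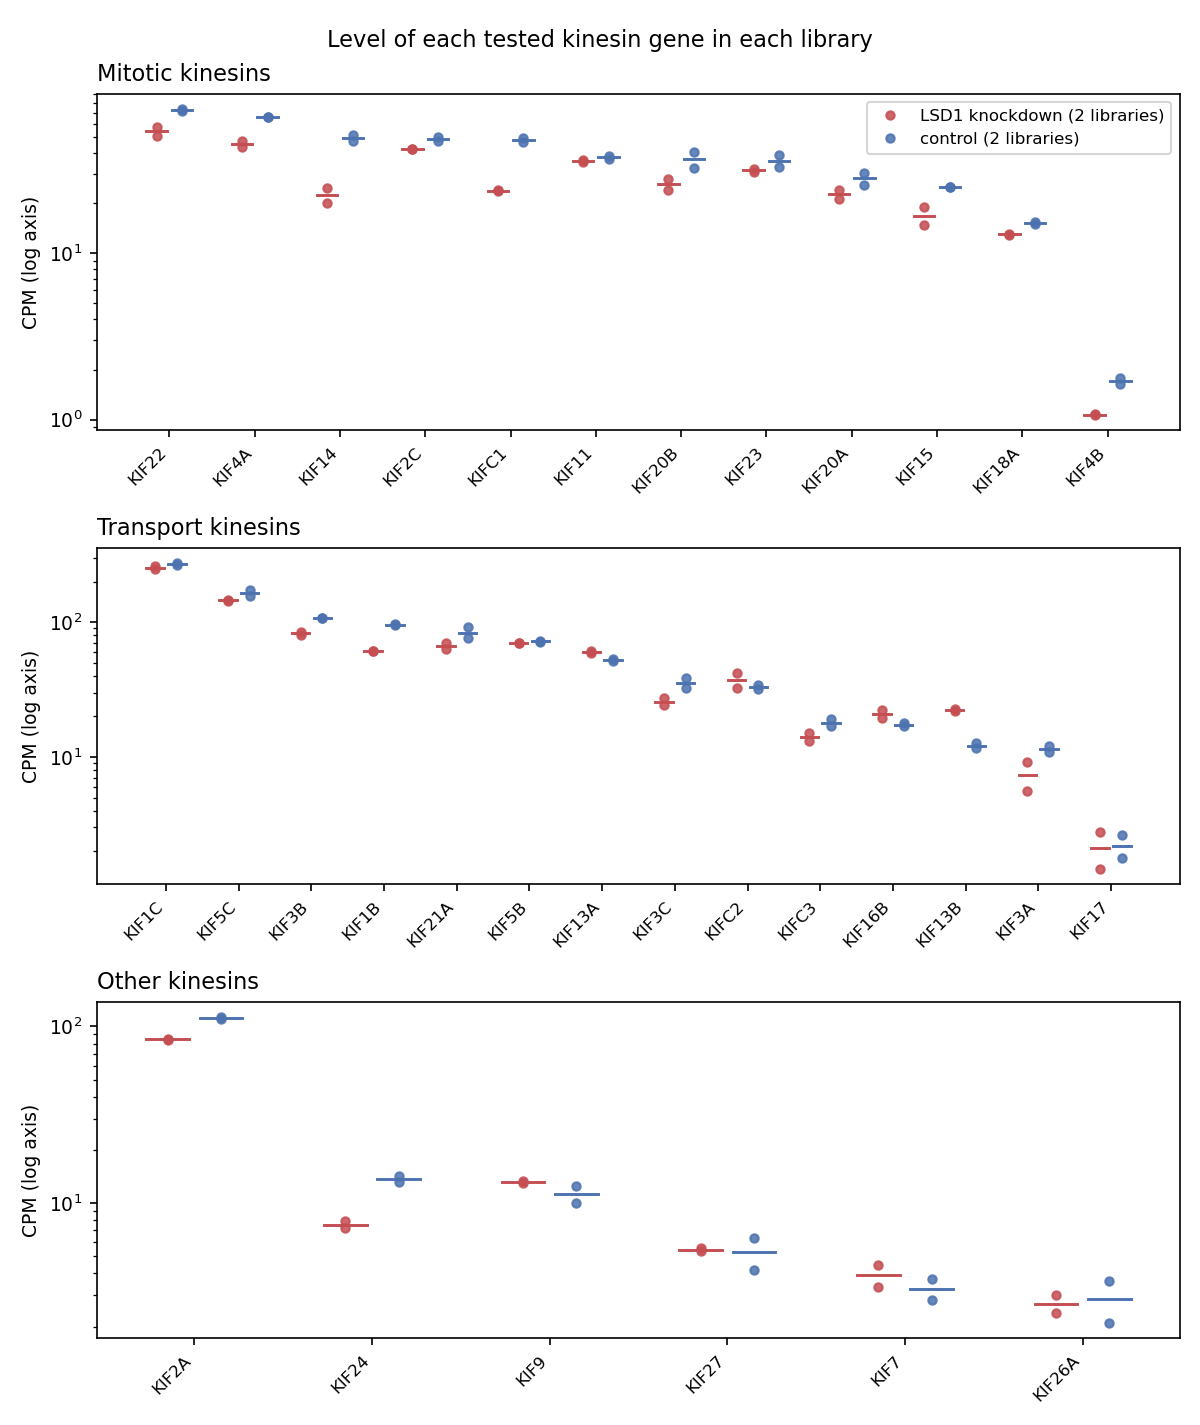
CPM of each tested kinesin gene in each library on a log axis, by role, with LSD1 knockdown libraries left of control libraries and short lines at the group means. KIF14, KIFC1, KIF24 and KIF1B show clear gaps downwards in knockdown libraries and KIF13B a gap upwards, while the 4 points of KIF11 and KIF5B lie close together.

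Promoters were searched for the CHR and CCAAT boxes known from mitotic genes. RefSeq promoters (GRCh38.p14, 250 bases before the gene start to 50 after it) were found for 28 of the 32 tested kinesins. KIF13B, KIF27, KIFC2 and KIFC3 had none in the table. The letters searched were TTTGAA and TTCGAA for the CHR, with the reverse complement TTCAAA, and CCAAT with its reverse complement ATTGG for the CCAAT box. The CHR and CCAAT letters can share at most 1 base. The stretches below run 5′ to 3′ on the strand of the gene, with 100 bases before the start and 20 after it and every match in capitals. The genes were chosen to set promoters of kinesins that fell beside those of kinesins that did not pass. Not every such promoter is shown. Each mitotic stretch shown holds both sets of letters, and among those not shown KIF15, KIF20A and KIF2C do not hold both. The stretches of genes that fell are
KIF14: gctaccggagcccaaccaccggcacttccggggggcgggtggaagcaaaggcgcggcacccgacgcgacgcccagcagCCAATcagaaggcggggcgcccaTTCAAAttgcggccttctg
KIFC1: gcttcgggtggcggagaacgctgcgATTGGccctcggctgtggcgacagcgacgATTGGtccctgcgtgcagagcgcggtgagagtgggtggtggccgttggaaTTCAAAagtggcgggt
KIF4A: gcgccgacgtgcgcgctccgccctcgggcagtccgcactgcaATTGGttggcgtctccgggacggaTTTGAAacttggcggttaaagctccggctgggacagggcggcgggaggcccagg
KIF22: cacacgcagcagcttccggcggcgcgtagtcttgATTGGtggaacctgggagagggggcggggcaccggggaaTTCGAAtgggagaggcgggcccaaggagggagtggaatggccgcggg
KIF24: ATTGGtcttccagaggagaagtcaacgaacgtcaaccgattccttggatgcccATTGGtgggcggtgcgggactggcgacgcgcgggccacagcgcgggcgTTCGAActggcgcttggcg

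The stretches of mitotic kinesins that did not pass, followed by that of KIF3B, a transport kinesin that fell, are
KIF11: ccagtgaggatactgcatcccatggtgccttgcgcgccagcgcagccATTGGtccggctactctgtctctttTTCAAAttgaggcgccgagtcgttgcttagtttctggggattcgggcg
KIF18A: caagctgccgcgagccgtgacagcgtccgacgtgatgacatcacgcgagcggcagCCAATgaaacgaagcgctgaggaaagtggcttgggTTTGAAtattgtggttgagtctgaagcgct
KIF23: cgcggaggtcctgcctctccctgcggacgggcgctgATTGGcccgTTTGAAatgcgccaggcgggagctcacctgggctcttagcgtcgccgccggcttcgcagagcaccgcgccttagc
KIF3B: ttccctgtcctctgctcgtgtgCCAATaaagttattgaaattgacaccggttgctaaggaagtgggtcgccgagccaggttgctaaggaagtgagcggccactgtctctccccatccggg

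They lie at chr1:200620732-200620851 (minus strand) for KIF14, chr6:33391723-33391842 (plus strand) for KIFC1, chrX:70290004-70290123 (plus strand) for KIF4A, chr16:29790651-29790770 (plus strand) for KIF22, chr9:34329249-34329368 (minus strand) for KIF24, chr10:92593030-92593149 (plus strand) for KIF11, chr11:28108137-28108256 (minus strand) for KIF18A, chr15:69414249-69414368 (plus strand) for KIF23 and chr20:32277551-32277670 (plus strand) for KIF3B. In KIF14, KIF4A, KIF11, KIF18A and KIF22 a CCAAT box starts 23 to 39 bases upstream of the CHR letters, and in KIFC1 the nearer CCAAT box starts 50 bases upstream. KIF23 has the pair 9 bases apart. KIF24, which is outside the mitotic list, has CHR letters from base 2 of the transcript and a CCAAT box 48 bases further upstream.

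CHR letters were present in 10 of the 12 tested mitotic kinesin promoters, CCAAT letters in 10, and both in 9. Both were present in 4.94% of the 10613 promoters found for tested genes and in 6.38% of all 35116 promoters. CHR letters alone or with CCAAT letters occurred in 11.4% of the promoters of tested genes and 16.4% of all promoters, and CCAAT letters in 36.9% and 34.6%. Of 11 transport kinesin promoters 1, that of KIF5B, held CHR letters, with its CCAAT box, and 3 held CCAAT letters. Within the mitotic list the letters did not follow the calls: both were present in 5 of the 7 genes that fell and in 4 of the 5 that did not pass. KIF2C had neither set, KIF15 only CHR letters and KIF20A only CCAAT letters. A match describes letters in this window and says nothing of binding.

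**Figure D3:**
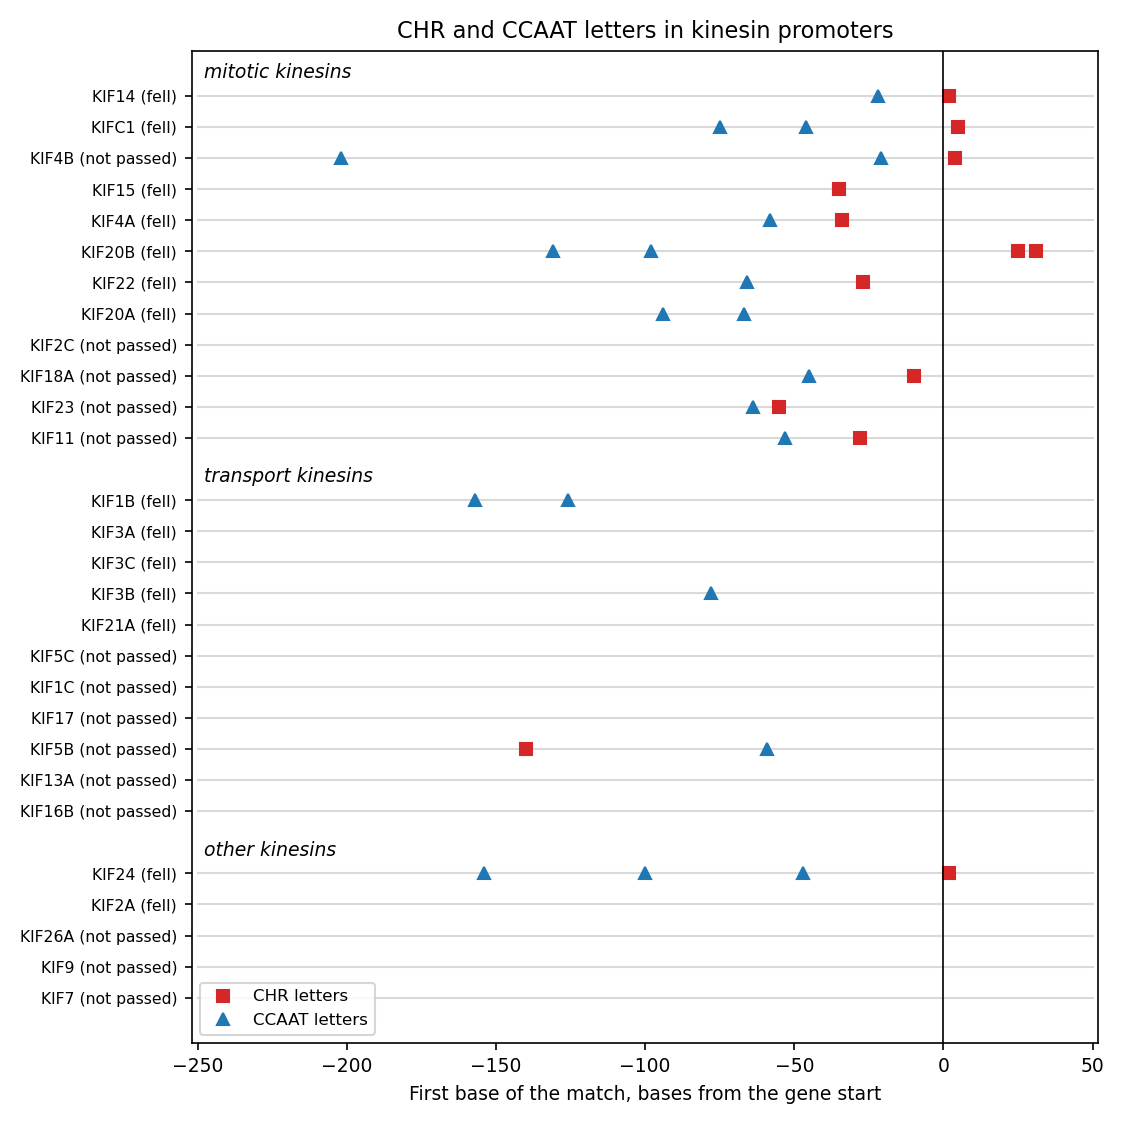
Position of CHR letters (squares) and CCAAT letters (triangles) in the promoters of 28 tested kinesins, in bases from the gene start, ordered within each role by log2 fold change. Most mitotic promoters hold a triangle to the left of a square near the start, whether or not the gene fell, and 1 of 11 transport promoters holds a square.

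Among transport kinesins, KIF3A, KIF3B and KIF3C fell. They are the kinesin-2 motor subunits that carry cargo along cilia and in the cytoplasm as heterotrimers with an accessory subunit. KIF3B (NM_004798), which pairs with KIF3A, had 80.7 and 84.5 CPM in knockdown libraries, against 108.4 and 107.5 CPM in control libraries, a fall of 0.39 ± 0.08 on the log2 scale (± standard error, edgeR adjusted p = 0.000499). KIF3C (NM_002254), the alternative partner of KIF3A, had 24.1 and 27.5 CPM in knockdown libraries, against 32.6 and 38.6 CPM in control libraries, a log2 fold change of -0.46 (standard error 0.11, edgeR adjusted p = 0.00138). KIF3A (NM_007054) had 9.24 and 5.56 CPM in knockdown libraries, against 12.1 and 10.9 CPM in control libraries, a log2 fold change of -0.64 (standard error 0.18, edgeR adjusted p = 0.00587). The KIF3A call rests on knockdown replicate 2, without which the value was -0.31 (edgeR adjusted p = 0.259), and DESeq2 did not make it (adjusted p = 0.0665).

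The accessory subunit KIFAP3, named after its values were seen, had 6.79 and 7.18 CPM in knockdown libraries, against 9.01 and 10.8 CPM in control libraries, and fell by 0.50 (edgeR adjusted p = 0.0201). Summed over KIF3A, KIF3B and KIF3C, the levels were 114 and 117 CPM in knockdown libraries, against 153 and 157 CPM in control libraries, most of it from KIF3B. KIF17, a kinesin-2 that works as a homodimer and did not pass (edgeR adjusted p = 0.945), had 18 and 36 counts in knockdown libraries, against 22 and 32 in control libraries. Its groups overlapped, and its interval from -0.70 to 0.63 on the log2 scale leaves a change of either sign possible at this depth.

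Kinesin-1, the conventional carrier of vesicles and mitochondria, did not pass for either expressed heavy chain. KIF5B (NM_004521), the heavy chain of most tissues, had 70.7 and 70.1 CPM in knockdown libraries, against 71.7 and 72.7 CPM in control libraries, a log2 fold change of -0.04 with a 95% interval from -0.21 to 0.14 (edgeR adjusted p = 0.78). KIF5C (NM_004522), known as a heavy chain of neurons, had 146.5 and 145.0 CPM in knockdown libraries, against 156.5 and 174.1 CPM in control libraries, with an interval from -0.35 to -0.01 (edgeR adjusted p = 0.0864). KIF5A, another neuronal heavy chain, had at most 3 counts in any library. Among the light chains KLC2, named after its values were seen, had 664 and 876 counts in knockdown libraries, against 574 and 547 counts in control libraries, and rose by 0.42 (edgeR adjusted p = 0.00116). The other light chains did not pass: KLC1, the most counted, had 265.7 and 262.9 CPM in knockdown libraries, against 287.1 and 282.1 CPM in control libraries (edgeR adjusted p = 0.311), and the edgeR adjusted p was 0.658 for KLC3 and 0.144 for KLC4.

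The kinesin-3 family, which moves vesicles and endosomes, held the single rise and a large fall. KIF13B (NM_015254), a carrier of membrane proteins that binds the polarity scaffold DLG1, had 21.9 and 22.9 CPM in knockdown libraries, against 12.6 and 11.6 CPM in control libraries. Its level was 1.85-fold that of control, a rise of 0.89 ± 0.13 on the log2 scale (± standard error, edgeR adjusted p = 1.83e-06). Its exons overlap AC108449.1 over 279 nucleotides and AC108449.3 over 585 on the opposite strand, and reads of these genes were not analysed here. It rose under all 13 alternatives, with log2 fold changes from 0.83 to 0.95. The scaffold DLG1, named after its values were seen, had 97.6 and 92.8 CPM in knockdown libraries, against 91.2 and 87.5 CPM in control libraries (edgeR adjusted p = 0.439). KIF13A (NM_001105568), which moves recycling endosomes, had 61.3 and 59.5 CPM in knockdown libraries, against 51.6 and 53.8 CPM in control libraries, without passing (log2 fold change 0.20, edgeR adjusted p = 0.0906). With no library factor KIF13A passed, at an edgeR adjusted p of 0.0462. KIF16B (NM_024704), a motor of early endosomes, had 22.4 and 19.6 CPM in knockdown libraries, against 16.9 and 17.8 CPM in control libraries (log2 fold change 0.27, edgeR adjusted p = 0.0842).

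KIF1B, a motor of mitochondria and synaptic vesicle precursors, fell in the transcript row that stood for it, and the other row did not pass. The row NM_183416 had 744 and 797 counts in knockdown libraries, against 1204 and 1159 in control libraries, a fall of 0.65 ± 0.09 on the log2 scale (± standard error, edgeR adjusted p = 4.14e-07). The row NM_015074 had 786 and 785 counts in knockdown libraries, against 857 and 937 in control libraries. With that row in its place the log2 fold change was -0.22 (edgeR adjusted p = 0.0575). The ratio of the first row to the second was 0.947 and 1.015 in knockdown libraries and 1.405 and 1.237 in control libraries. In GENCODE models matched to these accessions the rows share 2130 nucleotides and have 5435 and 4686 of their own. The difference between the rows was not tested, and reads in shared exons may count in both. KIF1B exons also share 293 nucleotides with RN7SL731P on the same strand, and which row this touches was not examined. KIF1C (NM_006612), a related motor of vesicles and mRNAs and the most counted kinesin, had 246.6 and 261.7 CPM in knockdown libraries, against 276.2 and 264.5 CPM in control libraries (edgeR adjusted p = 0.416). KIF1A, the neuronal member, was at 0 in all 4 libraries.

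**Figure D4:**
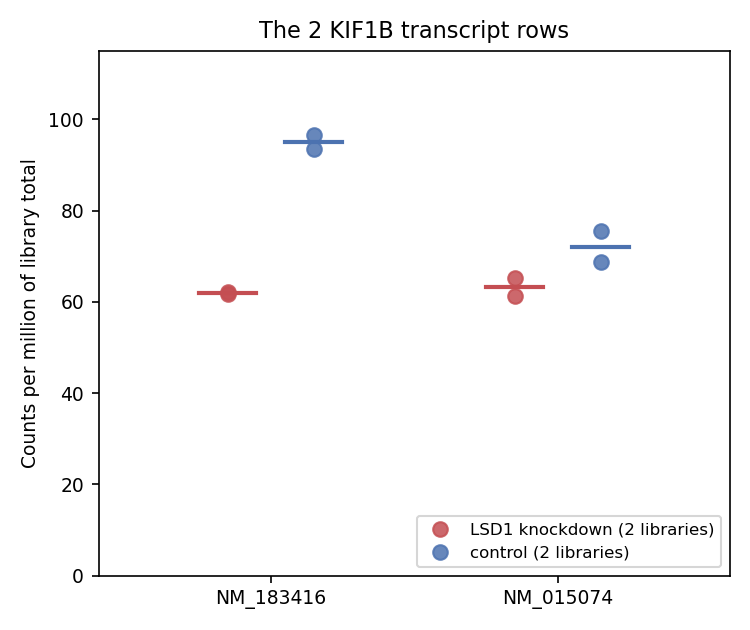
CPM of the 2 KIF1B transcript rows, LSD1 knockdown libraries left of control libraries, with lines at the group means. Scaling used library totals over the rows that stood for genes. The row NM_183416 lies at 61.8 and 62.1 in knockdown libraries against 96.5 and 93.4 in control libraries, and the row NM_015074 at 65.3 and 61.2 in knockdown libraries against 68.7 and 75.5 in control libraries.

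Of the 9 kinesins with several rows and any counts, the other 8 gave closer ratios of knockdown to control across their rows. Those of KIF13A ran from 1.17 to 1.29 and those of KIF16B from 1.23 to 1.25, against 0.652 and 0.877 for KIF1B. The row of KIF13A with the highest ratio, NM_001243423, had at most 29 counts.

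The remaining transport kinesins held 2 small falls. KIF21A (NM_001173464), which limits microtubule growth at the cell cortex, had 69.9 and 63.6 CPM in knockdown libraries, against 91.9 and 75.9 CPM in control libraries, a fall of 0.33 (standard error 0.09, edgeR adjusted p = 0.0064). Without control replicate 1 the fall was 0.19 (edgeR adjusted p = 0.243), and without knockdown replicate 2 it was 0.26 (edgeR adjusted p = 0.0564). KIFC3 (NM_001130100), a minus-end motor found at epithelial junctions, had 13.1 and 15.1 CPM in knockdown libraries, against 19.1 and 16.9 CPM in control libraries, a fall of 0.35 (standard error 0.13, edgeR adjusted p = 0.0366). DESeq2 did not call KIFC3 (adjusted p = 0.181), and the edgeR call was lost without control replicate 1 (-0.26, adjusted p = 0.251) or knockdown replicate 1 (-0.26, adjusted p = 0.234). KIFC2 (NM_145754), a minus-end motor known from neurons, had 32.8 and 41.9 CPM in knockdown libraries, against 31.9 and 34.4 CPM in control libraries, and the groups overlapped. It passed only without knockdown replicate 1 (0.33, edgeR adjusted p = 0.0281). The exons of KIFC2 overlap those of FOXH1 on the opposite strand over 791 nucleotides. KIF21B was at 0 in all 4 libraries.

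Among kinesins of other roles, KIF24 and KIF2A fell, and both belong to the kinesin-13 family of microtubule depolymerases. KIF24 (NM_194313), which works at the mother centriole and holds back cilium formation, had 7.93 and 7.18 CPM in knockdown libraries, against 13.1 and 14.3 CPM in control libraries. It was at 55.1% of control, a fall of 0.86 ± 0.16 on the log2 scale (± standard error, edgeR adjusted p = 4.65e-05), and it kept its call under all 13 alternatives. KIF24 overlaps the more abundant UBAP1 on the opposite strand over 143 nucleotides. KIF2A (NM_001243952), which acts at spindle poles and in neurites, had 85.1 and 83.8 CPM in knockdown libraries, against 109.8 and 113.3 CPM in control libraries, and fell by 0.40 (standard error 0.08, edgeR adjusted p = 0.000299). KIF2A exons share 428 nucleotides with IPO11 on the same strand, and reads there may count for either gene. Counted with the mitotic kinesins, KIF2A would bring the mitotic falls to 8 of 13.

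The remaining tested kinesins of other roles did not pass the test, and KIF7, KIF26A and KIF27 had fewer counts in each library than KIF9. KIF7, a regulator of Hedgehog signalling at the cilium tip, had 41 and 58 counts in knockdown libraries, against 35 and 45 in control libraries. Its exons overlap those of TICRR on the opposite strand over 589 nucleotides. KIF9, a motor of motile cilia, had 164 and 169 counts in knockdown libraries, against 125 and 152 in control libraries (log2 fold change 0.23, edgeR adjusted p = 0.232). KIF9 overlaps KIF9-AS1 over 870 nucleotides and KLHL18 over 178 on the opposite strand. KIF27 had 52 to 77 counts and KIF26A 26 to 44, with overlapping groups. KIF9-AS1 is no member of the family, and in the overlap its reads may count for KIF9, as strand use in counting is not stated.

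The 9 kinesins that did not reach the filter were KIF1A, KIF2B, KIF6, KIF12, KIF21B and KIF25, at 0 in all 4 libraries, and KIF5A, KIF19 and KIF26B, with at most 9 counts. A count of 0 allows up to 3 counts, or 0.234 to 0.249 CPM per library, for counting error only. KIF19 had 2 counts in knockdown replicate 1 and none in the other libraries. Smaller overlaps with genes on the opposite strand were found for KIF4A with PDZD11 over 77 nucleotides, KIF20A with BRD8 over 132 and CDC23 over 68, and KIF18A with METTL15 over 61. On their own strand, KIF2A shares 428 nucleotides with IPO11 and KIF1B shares 293 with RN7SL731P. On the opposite strand, KIF22 overlaps AC009133.4 over 561 nucleotides, KIFC3 overlaps AC092118.2 over 441 and AC092118.1 over 97, KIF27 overlaps AL354733.2 over 441 and AL354733.1 over 348, KIF23 overlaps AC027237.3 over 231, KIF2C overlaps AL592166.1 over 175, KIF1C overlaps AC004771.1 over 84 and KIF3A overlaps AC004039.1 over 7.

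Levels were set side by side per length of transcript, as CPM per kilobase with the length of the matched GENCODE transcript. The chromokinesin KIF22 had 24.0 and 27.1 CPM per kilobase in knockdown libraries, against 33.9 and 34.9 in control libraries. KIF1C had 31.1 and 33.0 in knockdown libraries, against 34.9 and 33.4 in control libraries, and KIF2A had 25.3 and 24.9 in knockdown libraries, against 32.7 and 33.7 in control libraries. The ranges of KIF1C overlapped those of KIF22 and KIF2A in control libraries. The KIF2A value rests on a transcript length of 3360 nucleotides, and its other rows, with nearly the same counts, match transcripts of 2315 to 2539 nucleotides, which would give a higher level. KIF5C had 21.1 and 20.9 CPM per kilobase in knockdown libraries, against 22.6 and 25.1 in control libraries, above KIF5B with 12.03 and 11.93 in knockdown libraries, against 12.2 and 12.4 in control libraries. The neuronal kinesin gene thus had the higher level of the pair in all 4 libraries, while the neuronal markers RBFOX3, SYP and MAP2 had at most 11 counts, SNAP25 was at 0 and TUBB3, which is also known from cancer lines, had 701 to 1063. KIFC1 ranked sixth in control libraries at 17.1 and 18.2 CPM per kilobase, level with KIF3B at 17.8 and 17.6, whereas in knockdown libraries KIFC1 had 8.77 and 8.82 and KIF3B 13.2 and 13.8. At the low end of the tested genes, KIF7, KIF17, KIF26A and KIF4B were under 1 CPM per kilobase in every library.

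Most partners of the mitotic kinesins fell. Of 18 mitotic partners 16 fell and 2 did not pass, or 88.9% that fell beside 17.9% of all genes, with a median log2 fold change of -0.44. HMMR, a spindle protein, fell by 1.04 (edgeR adjusted p = 6.64e-10), TPX2, which binds KIF11 and the kinase Aurora A, by 0.75 (edgeR adjusted p = 1.52e-08), and AURKA, which encodes Aurora A, by 0.76 (edgeR adjusted p = 3.74e-08). The kinesin CENPE, which moves chromosomes and lies outside the symbol rule, was named after its values were seen. It had 72.8 and 63.6 CPM in knockdown libraries, against 87.1 and 87.3 CPM in control libraries, and fell by 0.36 (edgeR adjusted p = 0.00206). Of 20 proliferation genes 15 fell and 5 did not pass, beside the same 17.9% of all genes, with a median of -0.43 and a summed level of 1285 to 1349 CPM in knockdown libraries, against 1809 to 1816 CPM in control libraries. Mitotic kinesins summed to 330 and 339 CPM in knockdown libraries, against 463 and 466 CPM in control libraries. Among the 4 proliferation genes with the smallest adjusted p, MCM5, a replicative helicase subunit, fell by 0.79, RRM2, which makes deoxynucleotides, by 0.74, TOP2A, which untangles DNA, by 0.69 and MKI67, which coats mitotic chromosomes, by 0.64. The 5 proliferation genes that did not pass, named after their values were seen, were CDK1, MCM2, MCM3, E2F1 and LIN52. Proliferation itself was not measured here, and the part of these mRNA falls in the kinesin result was not tested.

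Partners of transport kinesins, dynein genes and tubulins were called, counting both directions, about as often as all genes, but the tubulin calls leaned to falls. Of 19 transport partners 4 rose, 3 fell and 12 did not pass, a share of 36.8% called beside 36.1% of all genes, with a median of 0.05. MADD, an adaptor of kinesin-3, had 66.9 and 70.4 CPM in knockdown libraries, against 41.2 and 48.9 CPM in control libraries, and rose by 0.61 (edgeR adjusted p = 6.81e-06). RHOT1, which anchors motors to mitochondria, rose by 0.59, MAPK8IP3, an adaptor of kinesin-1, rose by 0.42 and KIFBP, which binds and blocks kinesin motors, fell by 0.44 (edgeR adjusted p of 0.000509 or lower). Of 27 genes of dynein and dynactin, the minus-end motor and its activator, 3 rose, 5 fell and 19 did not pass, a share of 29.6% called beside 36.1% of all genes. DYNC1I1, an intermediate chain, had 1.47 and 1.16 CPM in knockdown libraries, against 5.87 and 5.02 CPM in control libraries, and fell by 2.05 (edgeR adjusted p = 5.53e-07). HOOK1, a dynein adaptor, rose by 0.59, NDEL1, a dynein regulator, rose by 0.37 and DYNLT1, a light chain, fell by 0.46. Of 26 tubulins and microtubule modifiers 8 fell, 2 rose and 16 did not pass, a share of 38.5% called beside the same 36.1%. By direction 30.8% fell and 7.69% rose, beside 17.9% and 18.2% of all genes, with a median of -0.095. STMN1, which sequesters tubulin, fell by 1.04 and TUBB6 by 0.98, TUBB3 fell by 0.47, and TTLL12, a tubulin ligase relative, rose by 0.46.

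**Figure D5:**
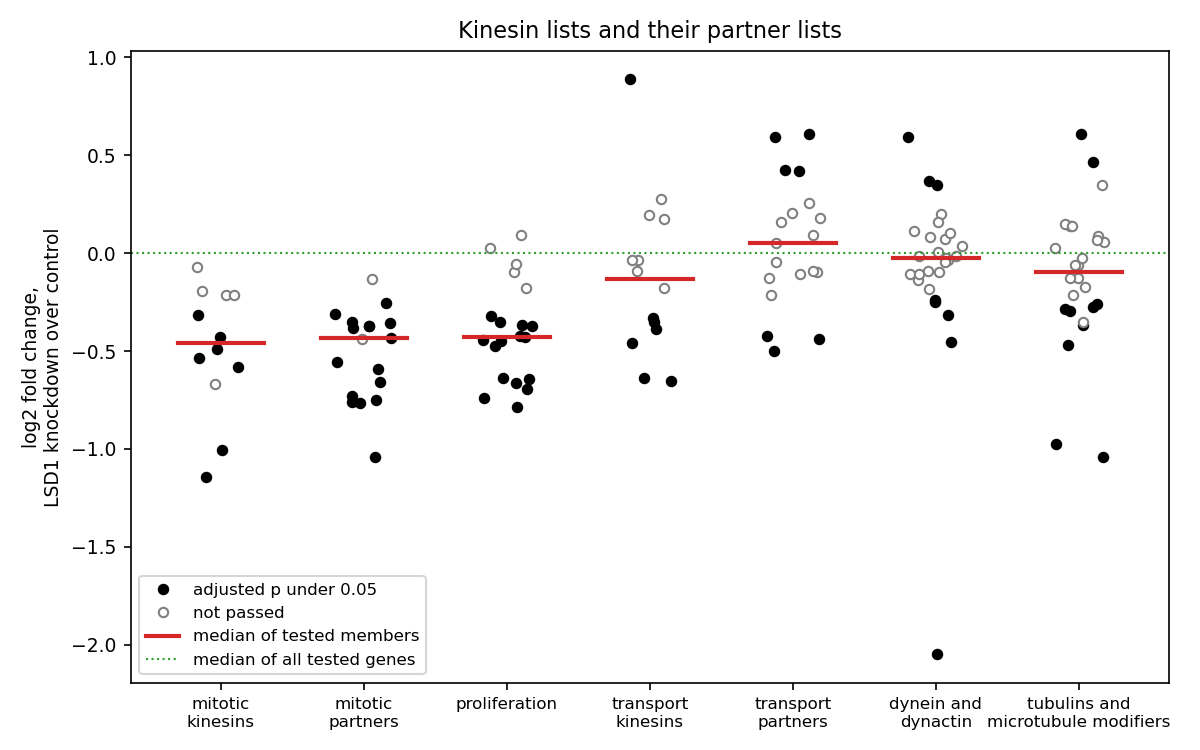
Log2 fold change of each tested gene, LSD1 knockdown over control, for mitotic and transport kinesins, their partner lists, proliferation, dynein and tubulin genes, with filled points for an adjusted p under 0.05 and bars at the list medians. Points of the mitotic kinesins, mitotic partners and proliferation genes lie mostly below the median of all tested genes (dotted). Their medians are -0.46, -0.44 and -0.43. Transport partners and dynein spread around the dotted line, and tubulins have a median of -0.095 with more falls than rises.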

How the data were processed

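RNA was measured by sequencing in 2 LSD1 knockdown and 2 control libraries. The authors deposited a table of raw counts for each library, with 1 whole number per RefSeq transcript and no header line, so the unit was read from the numbers. Per the submitters' processing notes, the build was hg19 and the tools were TopHat2, HOMER, edgeR and DESeq 1.8.3, without roles. Strand use in counting is not given in the sources used here.

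Of 38767 rows 37201 were named from a RefSeq gene table (GRCh38.p14) and 476 from GENCODE metadata, giving 22841 symbols. Another 1090 rows, with 1.38% to 1.40% of each library's counts, matched no symbol and were not used. The row with the highest mean stood for each symbol. Totals per library were 22855909 to 24348184 counts over all rows and 12040681 to 12831374 over the rows that stood for a symbol. Counts on the other rows of a symbol were left out of the main fit. Low genes were removed with filterByExpr (minimum count 10, minimum total 15), and counts were scaled by TMM and tested with the quasi-likelihood test of edgeR 4.0.16 (R 4.3.3) on knockdown against control. Benjamini-Hochberg adjustment ran over 13247 genes at 0.05. The biological coefficient of variation was 5.96%, and p-values draw on a spread estimated across genes, measured between 2 libraries a group. A standard error is the log2 fold change divided by the square root of the test's F, and 95% intervals use it with the test's degrees of freedom. CPM values use TMM library sizes, except those of transcript rows, which use library totals over the rows that stood for a symbol. Exon overlaps and transcript lengths are from GENCODE 29.

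Members, roles and partner lists were chosen with earlier results of these data known, so lists are described by counts and medians without a set test. Named genes were KDM1A, the kinesins, and up to 4 called members per partner list with the smallest adjusted p. Alternatives were DESeq2 size factors, no library factor, filtering at 1 CPM or not at all, the tests of DESeq2 1.42.0 and of limma-voom 3.58.1, a block for the replicate number, summing all rows of a symbol, leaving out each library and, added after the data were seen, the row with the second highest mean. The test was checked on simulated counts, in which it recovered 77.6% of genes changed 1.5-fold and 97.0% of those changed 2-fold. Smaller changes were not simulated. The test called 191 genes there, against 4788 in these data, so the simulated setting had far fewer changes. Some marker genes are not reported here.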

Additional observations from a re-analysis of the deposited data

How the results depend on the processing

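Of 415 kinesin results over 13 alternatives, 392 kept their direction and side of the threshold, 15 calls were lost and 2 were gained. The other 6 changed sign, all of genes that were not called. Only 9 kinesins have several rows with counts. For the rest, such as KIF13B and KIF24, summing rows or taking the second row left their own counts unchanged, so agreement there carries little weight. Without 1 library, the log2 fold change of KIF17 ran from -0.57 to 0.33, that of KIF26A from -0.42 to 0.37, that of KIF27 from -0.22 to 0.38 and that of KIFC2 from -0.015 to 0.33. Of the 16 called kinesins 10 were called under every alternative, and calls were lost for KIF20A, KIFC3, KIF3A, KIF21A, KIF20B and KIF1B. The lost calls not given above were those of KIF20A and KIFC3 with no library factor (edgeR adjusted p of 0.059 and 0.0622) and of KIF20A summed over rows (0.0599). DESeq2 called 3182 genes in all, and 4 of dynein and dynactin, against 4788 and 8 in edgeR. Without 1 library, 3661 to 3986 genes were called, 6 to 7 mitotic kinesins, 5 to 7 transport kinesins and 5 to 7 dynein and dynactin genes, 5 of them without control replicate 1 or without knockdown replicate 1. The cause was not tested. Same-numbered libraries are not stated to share a batch, and their deviations correlated at 0.0676. With the replicate number as a block 5268 genes were called, with the same 7, 7 and 2 counts in the kinesin groups. KIF17, KIF26A, KIF4B and KIF7, with under 60 counts per library, are limited by depth.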
